A study of Mus musculus with 10 samples.

Results

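The genes described here are Arntl, Npas2, Clock, Nfil3 and Cry1, the activating arm of the circadian clock and the genes that peak with it. They are 5 of the 43629 genes in the count table, and all 5 were found by symbol. Arntl, the gene of BMAL1, is written under its older symbol. The 5 genes were chosen by their place in the clock, with their fold changes between control and rilmenidine kidneys already known from an earlier reading of the same table. Their differences between the groups are therefore a description, and where the outcome of the fit across all genes is counted for them, it supports nothing.

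The circadian clock is a loop of transcription and translation that runs in nearly every cell, with a period close to that of the day. BMAL1 forms a dimer with CLOCK, or with its paralog NPAS2, and the dimer binds E-boxes to switch on the Per and Cry repressors, the REV-ERB genes Nr1d1 and Nr1d2, and the PAR bZIP factors Dbp, Tef and Hlf. REV-ERB proteins repress, and ROR proteins activate, genes that carry a ROR response element (RORE), among them Arntl and Nfil3, so that Arntl peaks roughly opposite to Nr1d1. In the kidney the clock is known for daily rhythms of filtration and of sodium and water transport.

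The data were RNA-seq counts from whole kidneys of male UM-HET3 mice, a genetically heterogeneous stock, collected at 4 months of age. The 6 control mice ate the Purina 5LG6 diet. The 4 rilmenidine mice ate that diet with 10 ppm of rilmenidine, an imidazoline receptor agonist prescribed against hypertension, for 1 month from 3 months of age. No transgene or deletion was involved, and littermates in such a stock differ genetically from each other. The clock time of collection is not given in the sources used here, so the place of each kidney in the daily cycle is unknown.

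Total counts ran from 863605 to 2559118 in control kidneys and from 1813465 to 3232063 in rilmenidine kidneys. Part of the labels' extraction text names liver, and the markers were those of kidney. Slc34a1, the phosphate transporter of the proximal tubule, had 5478 to 20224 counts in each library, and Umod, which marks the thick ascending limb, had 1293 to 6361. Alb of liver had 0 to 20 counts and Cyp7a1 0 to 8. No pair of libraries was a copy: over all 45 pairs, chi-square divided by its degrees of freedom was 4.1 or more. Malat1, a nuclear RNA, stood at 284 and 398 normalized CPM in control kidneys 6 and 2, at 1182 to 2100 in the other 4 control kidneys, and at 306 to 393 in rilmenidine kidneys. Normalized CPM here use library sizes scaled between samples by the RLE method.

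The promoters of the members differed in the clock elements they hold. RefSeq promoters (GRCm38.p6, 250 bases before to 50 after a start) were found for all 5 members, with 8 starts in all, and searched on both strands for the E-box CACGTG, the variant E-box CACGTT, the RORE core TAGGTCA and the D-box TTANGTAA. The RORE core was present in 2 of the 8 windows, in Arntl and Nfil3, against 2.61% of all 32851 promoter windows. Each kind of E-box was found in 1 of the 8 windows, that of Cry1, against 7.15% of all windows for CACGTG and 4.68% for CACGTT. The D-box was in none of the 8, and in 2.32% of all windows. The 1 window of Npas2 and the 3 of Clock held none of these letters. The stretches with matches are shown 5′ to 3′ on the strand of the gene, the matched letters in capitals, because the element found in Arntl and Nfil3 differs from those found in Cry1. The Arntl stretch (chr7:113207531-113207560, plus strand) lies 21 to 50 bases after the second RefSeq start, and the Nfil3 stretch (chr13:52981040-52981069, minus strand) directly before its RefSeq start, within the first exon of the GENCODE gene. The Cry1 stretch (chr10:85185095-85185164, minus strand) covers positions −110 to −41 from its start. In Nfil3 the RORE core stands on the opposite strand.
Arntl: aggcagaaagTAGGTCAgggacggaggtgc
Nfil3: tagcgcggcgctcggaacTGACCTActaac
Cry1: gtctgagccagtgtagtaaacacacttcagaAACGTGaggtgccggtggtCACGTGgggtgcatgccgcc

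A pair of genes of the opposite phase is shown for contrast, picked for having several matches to 1 element; the windows of Nr1d2, Dbp and Hlf held none. Ciart, a repressor that BMAL1 and CLOCK switch on, held 3 E-boxes (chr3:95882259-95882358, minus strand), and Per3 held 2 D-boxes (chr4:151044806-151044885, minus strand), the element that PAR bZIP factors activate and NFIL3 represses. A match is a description of the letters and was not tested as a binding site.
Ciart: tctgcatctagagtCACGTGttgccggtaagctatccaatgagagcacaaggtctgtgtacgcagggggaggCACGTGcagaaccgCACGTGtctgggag
Per3: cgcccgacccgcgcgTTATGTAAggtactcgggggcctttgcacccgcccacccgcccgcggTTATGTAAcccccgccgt

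To ask whether the activating arm of the clock differed after rilmenidine, the levels of the members were compared between the groups. Arntl, Npas2 and Nfil3 had lower means in rilmenidine kidneys, in a band of log2 fold changes from −1.46 to −1.20, while Clock and Cry1 differed by less than their spread between kidneys. All 5 log2 fold changes were below 0 and their median was −1.20, beside a median of 0.00 over the 10055 genes that passed the filter on low counts. All 5 members passed that filter, a minimum of 6 reads in 7 or more of the 10 kidneys, Cry1 with exactly 7. In edgeR's quasi-likelihood test, adjusted over all genes by Benjamini-Hochberg, 0 of the 5 members passed 0.05, as did 0 of all 10055 genes (0%). At an unadjusted p-value under 0.05, 3 of the 5 members (Arntl, Npas2 and Nfil3) were lower with rilmenidine, against 6.13% of all genes in that direction and 10.6% in either. These counts come from the contrast that the members were picked on, and nothing is read from them. The same holds for the calls at an adjusted p-value under 0.05 in other fits of that contrast, which are given because they differ from the fit above. DESeq2 called Arntl and Nfil3 (0.597% of all genes called), the edgeR likelihood ratio test called Nfil3 (0.438%), and the quasi-likelihood test without a filter beyond 1 count called Arntl and Nfil3 (0.874%). In whole kidney, fewer cells of a type and less RNA per cell cannot be told apart.

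**Figure D1:**
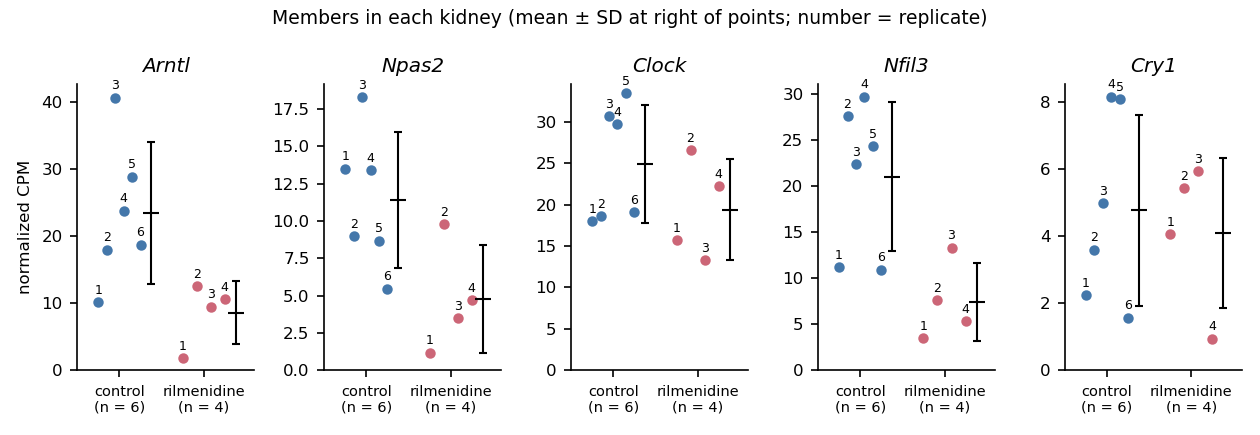
Normalized CPM of the 5 members in each kidney (points, numbered by replicate; 6 control and 4 rilmenidine), with mean ± SD at the right of each group. Rilmenidine kidney 1 is the lowest of all 10 for Arntl, Npas2 and Nfil3, and the groups overlap for each gene.

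Arntl (ENSMUSG00000055116; GRCm38 chromosome 7, 113207465 to 113314126, plus strand) encodes BMAL1, the partner without which the activating dimer does not form. It had 10.1, 18.0, 40.7, 23.8, 28.9 and 18.7 normalized CPM in control kidneys 1 to 6. In rilmenidine kidneys 1 to 4 it had 1.74, 12.5, 9.45 and 10.6. All 4 rilmenidine values lay below the control median of 21.2, and the groups overlapped through control kidney 1 alone, which stood below rilmenidine kidneys 2 and 4. The means were 23.4 ± 10.6 (SD, n = 6) and 8.57 ± 4.72 (SD, n = 4), and the log2 fold change was −1.41 (standard error 0.38), the 29th lowest of the 10055 genes.

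The low end of Arntl rested on few reads. Rilmenidine kidney 1 held 3 Arntl reads, for which the exact 95% Poisson interval is 0.619 to 8.77 reads, or 0.359 to 5.08 normalized CPM. This interval covers counting error only, and it overlaps that of control kidney 1, which is 4.62 to 19.2 normalized CPM. Without that kidney the log2 fold change was −1.12 (standard error 0.33). The annotated antisense gene Gm45355 overlaps Arntl and has no row in the table.

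Npas2 (ENSMUSG00000026077; chromosome 1, 39193731 to 39363236, plus strand) encodes the paralog that can take the place of CLOCK beside BMAL1. Its normalized CPM in control kidneys 1 to 6 were 13.5, 8.99, 18.3, 13.4, 8.68 and 5.46. Rilmenidine kidneys 1 to 4 had 1.16, 9.77, 3.50 and 4.68. All rilmenidine kidneys but 1 lay below every control kidney, and rilmenidine kidney 2 stood inside the control range. The means were 11.4 ± 4.55 (SD, n = 6) and 4.78 ± 3.64 (SD, n = 4), with a log2 fold change of −1.20 (standard error 0.44).

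Npas2 had few reads. It had 2 reads in rilmenidine kidney 1 and 10 to 22 in the other 9 kidneys. With log2 library size as a covariate its log2 fold change was −0.54 (standard error 0.52), beside −1.20 in the fit without covariates. With log2 Malat1 CPM as a covariate the log2 fold change was −0.68 (standard error 0.55). In the fit without covariates it was −0.93 without rilmenidine kidney 1 and −1.68 without rilmenidine kidney 2.

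Clock (ENSMUSG00000029238; chromosome 5, 76209868 to 76304792, minus strand) encodes the usual partner of BMAL1, a histone acetyltransferase whose own RNA cycles weakly or not at all in many tissues. It had 18.0, 18.6, 30.7, 29.7, 33.5 and 19.1 normalized CPM in control kidneys 1 to 6 and 15.7, 26.6, 13.3 and 22.2 in rilmenidine kidneys 1 to 4. Rilmenidine kidneys 1 and 3 were the lowest of the 10, and the groups overlapped. The means were 24.9 ± 7.12 (SD, n = 6) and 19.4 ± 6.08 (SD, n = 4), and the log2 fold change of −0.36 (standard error 0.25) was smaller than the spread within groups of 0.41 on the log2 scale. The paralogs Clock and Npas2 thus had log2 fold changes of −0.36 and −1.20 side by side, and the difference between them was not tested.

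Nfil3 (ENSMUSG00000056749; chromosome 13, 52967209 to 52981073, minus strand) encodes the repressor E4BP4, which competes with the PAR bZIP factors at D-boxes. Its normalized CPM were 11.2, 27.6, 22.4, 29.7, 24.3 and 10.9 in control kidneys 1 to 6. They were 3.48, 7.60, 13.3 and 5.31 in rilmenidine kidneys 1 to 4. All rilmenidine kidneys but 1 lay below every control kidney, and rilmenidine kidney 3 passed only control kidneys 1 and 6. The means were 21 ± 8.11 (SD, n = 6) and 7.42 ± 4.26 (SD, n = 4), and the log2 fold change was −1.46 (standard error 0.37), the 24th lowest of the 10055 genes. It was −1.93 without rilmenidine kidney 3 and −1.26 without rilmenidine kidney 1. No annotated gene overlaps Nfil3 or Cry1.

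Cry1 (ENSMUSG00000020038; chromosome 10, 85131700 to 85185064, minus strand) encodes a repressor of the dimer that peaks late, close to Arntl. It had 2.24, 3.60, 4.98, 8.17, 8.10 and 1.56 normalized CPM in control kidneys 1 to 6. In rilmenidine kidneys 1 to 4 the values were 4.06, 5.43, 5.95 and 0.937, from 3 to 17 reads. Rilmenidine kidneys lay on either side of the control median, 2 above and 2 below. The log2 fold change was −0.24 (standard error 0.52), and it changed sign without control kidney 5 (0.01), without rilmenidine kidney 4 (0.14), and with log2 library size (0.22) or log2 Malat1 CPM (0.64) as a covariate. No difference of Cry1 beyond its error was seen.

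**Figure D2:**
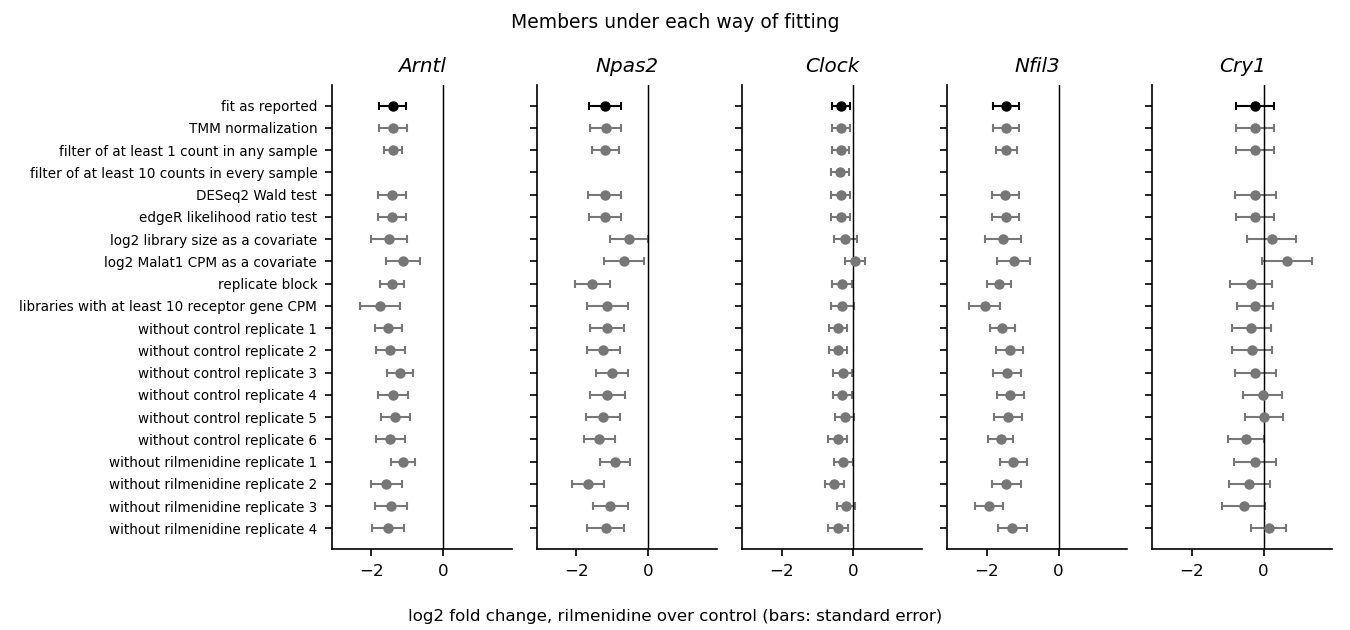
Log2 fold change of each member (points) with its standard error (bars) in the fit as reported and under each alternative; a missing point means that the gene did not pass the filter. Arntl and Nfil3 stay below −1 in every fit that holds them, Npas2 reaches −0.54, and Clock and Cry1 cross 0.

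The 3 lower members did not draw their difference from the same kidneys in equal measure. Rilmenidine kidney 1 was the lowest of all 10 for Arntl, Npas2 and Nfil3 and the second lowest for Clock, but ranked 5 from the bottom for Cry1. Rilmenidine kidney 4 was second lowest for Nfil3 and lowest for Cry1. Rilmenidine kidney 2 held the highest value of its group for Arntl, Npas2 and Clock, and not for Nfil3 or Cry1.

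Malat1 moved with the groups, and so its values are set beside the members. With log2 Malat1 CPM as a covariate the log2 fold changes were −1.12 for Arntl (standard error 0.46), −1.25 for Nfil3 (standard error 0.46), −0.68 for Npas2, 0.03 for Clock and 0.64 for Cry1. Control kidneys 2 and 6, with Malat1 at the level of the rilmenidine kidneys, had 18.0 and 18.7 normalized CPM of Arntl, above all 4 rilmenidine kidneys. Their Npas2, at 8.99 and 5.46, lay within the rilmenidine range, as did the Nfil3 of control kidney 6. The share of reads on olfactory and vomeronasal receptors, which kidney tissue should scarcely express, differed between libraries too. Among the 7 libraries where it reached 10 CPM, 5 control and 2 rilmenidine, the log2 fold changes were −1.76 for Arntl, −2.06 for Nfil3 and −1.14 for Npas2, and the other 3 libraries hold 1 control kidney, too few for a value.

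Some markers of tubule segments stood apart between the groups as well, although none passed the adjusted test. Aqp2 of collecting duct principal cells was 68.3 ± 10.5 (SD, n = 6) normalized CPM in control and 102 ± 16.7 (SD, n = 4) in rilmenidine kidneys without overlap, as in 0.796% of all genes. The sums of markers that follow are in CPM of the total counts, without RLE scaling. The summed CPM of the 2 collecting duct markers ran from 114.4 to 170.0 in control and from 160.0 to 176.5 in rilmenidine kidneys. The 2 thick ascending limb markers summed to 1014.2 to 1791.3 and 1290.7 to 2236.0 CPM, the 2 distal convoluted tubule markers to 188.7 to 337.6 and 116.3 to 232.8, and the 6 proximal tubule markers to 43752.6 to 56395.0 and 44878.9 to 65616.3. Most of the proximal tubule sum was Kap, with a log2 fold change of 0.26. Miox had 0.39, Slc5a2 0.18, Lrp2 −0.01, Slc34a1 −0.04 and Slc22a6 −0.18. Most of the thick ascending limb sum was Umod, with 0.61, where Slc12a1 had 0.08. The control and rilmenidine ranges were 9.3 to 33.6 and 14.9 to 25.4 CPM for podocyte markers, 94.4 to 185.2 and 135.5 to 178.1 for endothelium, 39.6 to 168.9 and 94.1 to 106.2 for immune cells, 820.5 to 6650.1 and 2262.6 to 3131.7 for blood, and 0.0 to 17.3 and 5.3 to 12.5 for liver. The part of Malat1, of the receptor genes and of these markers in the members' levels was not tested beyond these values.

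The members varied more between kidneys of 1 group than most genes. Their spread within groups on the log2 scale was 0.82 for Arntl, 0.79 for Cry1, 0.73 for Npas2, 0.65 for Nfil3 and 0.41 for Clock, where the median of all tested genes was 0.33. For Arntl 97.0% of the tested genes had a smaller spread, and for Clock 67.9% did. Among control kidneys alone, the SD of Arntl was 0.65 where counting error would give about 0.29, and that of Nfil3 was 0.61 beside 0.29. Separate animals are likely to differ by more than counting error. Some genes of the opposite phase did so too, with 0.88 beside 0.31 for Nr1d1 and 0.78 beside 0.39 for Per3. Bhlhe40, with 0.30 beside 0.27, did not differ clearly by more than counting error. The corresponding values were 0.65 and 0.67 for Bhlhe41 and 0.75 and 0.66 for Cry1. The counting values take no account of the prior count of 2, which narrows the observed spread of genes with few reads. For Bhlhe41 and Cry1 they therefore cannot say whether counting error was exceeded.

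To ask whether genes of the same arm were high in the same animals, the 6 control kidneys were used, since the variation among them is not part of the contrast that chose the members. Log2 CPM of Arntl was compared with 14 clock genes over the 6 control kidneys by exact permutation tests of all 720 orders, which can give no p-value under 0.00139. Clock was high where Arntl was high, and Nr1d1, the gene of REV-ERBα, was low. Malat1 was at 1182 to 2100 normalized CPM in control kidneys 3, 4 and 5, which had the most Arntl. It was at 398 and 284 in control kidneys 2 and 6, and at 1482 in control kidney 1, which had the least Arntl. The part of Malat1 in these relations was not tested. Pearson's r of Arntl with Clock was 0.84 (two-sided exact permutation p = 0.0292, 0.204 after Benjamini-Hochberg adjustment over the 14 relations), and Spearman's rho was 0.94 (exact p = 0.0167, adjusted 0.233). Pearson's r with Nr1d1 was −0.83 (exact permutation p = 0.0278, adjusted 0.204), and rho was −0.83 (exact p = 0.0583, adjusted 0.272).

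None of the 14 relations passed after adjustment, and 2 by Pearson's r (Clock and Nr1d1) and 2 by Spearman's rho (Clock and Rora) had an unadjusted exact p under 0.05. Rora, an activator at ROREs, had a rho of 0.89 (exact p = 0.0333) and an r of 0.45 (exact permutation p = 0.362). With control kidneys 1 and 3 left out, those farthest from the median of Arntl, r over the other 4 was 0.98 for Clock and −0.92 for Nr1d1. Other relations did not keep their value: r went from −0.61 to 0.80 for Tef, from −0.03 to 0.84 for Per2, from −0.50 to 0.60 for Per3, from −0.44 to 0.66 for Hlf, from −0.70 to 0.24 for Nr1d2 and from −0.17 to −0.87 for Bhlhe40. For the other members r with Arntl was 0.63 for Cry1, 0.59 for Nfil3 and 0.26 for Npas2, with exact permutation p-values of 0.189, 0.244 and 0.642. The values for Npas2 and Nfil3 rested on single kidneys. Without control kidney 1, r was 0.76 with Npas2 and 0.25 with Nfil3, and without control kidney 3 it was −0.29 with Npas2. For Cry1, r ran from 0.51 to 0.73 with single control kidneys left out. Only 1 of the 6 control kidneys lay under 10 CPM of receptor genes, too few for values within that split.

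**Figure D3:**
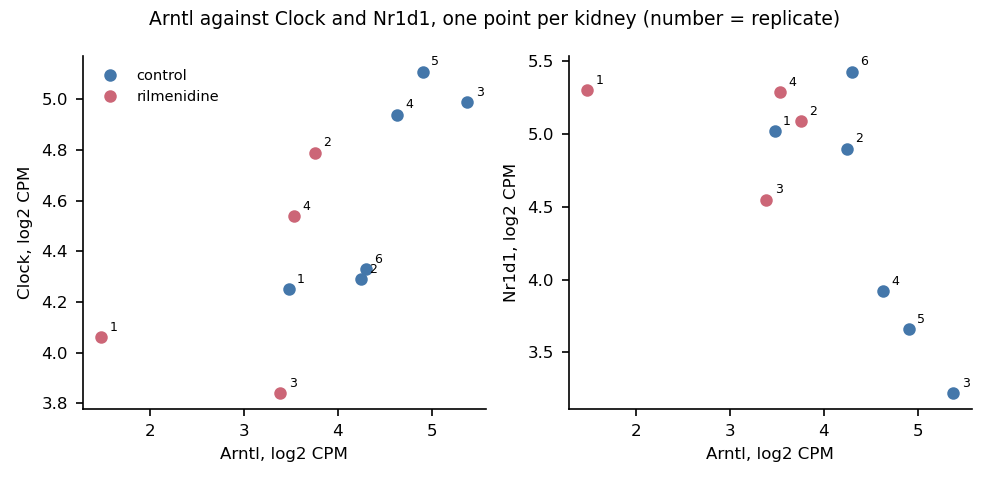
Log2 CPM of Clock (left) and Nr1d1 (right) against log2 CPM of Arntl, 1 point per kidney, numbered by replicate. Among control kidneys, those with the most Arntl (3, 4 and 5) have the most Clock and the least Nr1d1, and the rilmenidine kidneys lie beside control kidneys 1, 2 and 6 or at lower Arntl.

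The kidneys with the highest Arntl over Nr1d1 were all controls. The log2 ratio was 2.16, 1.25 and 0.71 in control kidneys 3, 5 and 4, and −0.65, −1.13 and −1.54 in control kidneys 2, 6 and 1. In rilmenidine kidneys 1 to 4 it was −3.82, −1.34, −1.16 and −1.75. The groups overlapped, with control kidney 1 below rilmenidine kidneys 2 and 3. The same ratio with Nfil3 in place of Arntl ran from −1.85 to 1.33 in control and from −3.12 to −0.71 in rilmenidine kidneys.

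The opposing arm of the clock was read from lists of repressors and PAR bZIP outputs. Of 9 repressors, 6 passed the filter, 4 of them with a log2 fold change above 0 and 2 below, and their median was 0.21. Over all 10055 tested genes 5056 were above 0. The median over the 8 tested repressors and PAR bZIP genes, 0.19, was 0.02 without rilmenidine kidney 1, 0.39 without control kidney 1, and 0.44 and 0.47 with library size and Malat1 as covariates. Of 3 PAR bZIP genes, 2 passed, with a median of 0.15. Of these 8 genes 0 passed 0.05 after adjustment over all genes in the quasi-likelihood fit of edgeR, 0 had an unadjusted p-value under 0.05, where 4.43% of all genes did so in the higher direction, and 0 were called by DESeq2 or the likelihood ratio test.

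Nr1d1 and Nr1d2, the REV-ERB repressors of Arntl, were above their control medians in all 4 rilmenidine kidneys but inside the control range. Nr1d1 had 8.30 to 42.1 normalized CPM in control (median 21.4) and 22.4 to 38.3 in rilmenidine kidneys (median 35.6), a log2 fold change of 0.50 (standard error 0.34; adjusted p-value 0.635 by edgeR). That of Nr1d2 was 0.28 (standard error 0.21). Nr1d1 became −0.033 with the Malat1 covariate.

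Per3 and Per2, repressors of the dimer, had log2 fold changes of 0.15 (standard error 0.41) and −0.18 (standard error 0.51). Bhlhe40 and Bhlhe41, which compete for E-boxes, had −0.28 (standard error 0.23) and 0.60 (standard error 0.49). The PAR bZIP factors Tef and Hlf had 0.23 (standard error 0.20) and 0.07 (standard error 0.15). None of these 6 differences exceeded its error by enough to pass.

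Some clock genes were too low to test. Dbp had 0 to 3 reads in any kidney and Per1 0 to 7. Ciart had 1 or 2 reads in each control kidney and 8, 9, 3 and 6 in rilmenidine kidneys 1 to 4, and Cry2 had 1 to 3 against 8, 10, 8 and 4. In normalized CPM Ciart ran from 0.390 to 2.24 in control and from 1.05 to 4.89 in rilmenidine kidneys, and Cry2 from 0.578 to 3.37 and from 1.25 to 5.43, so that both overlapped. Ciart and Cry2 are named here after their values were seen.

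**Figure D4:**
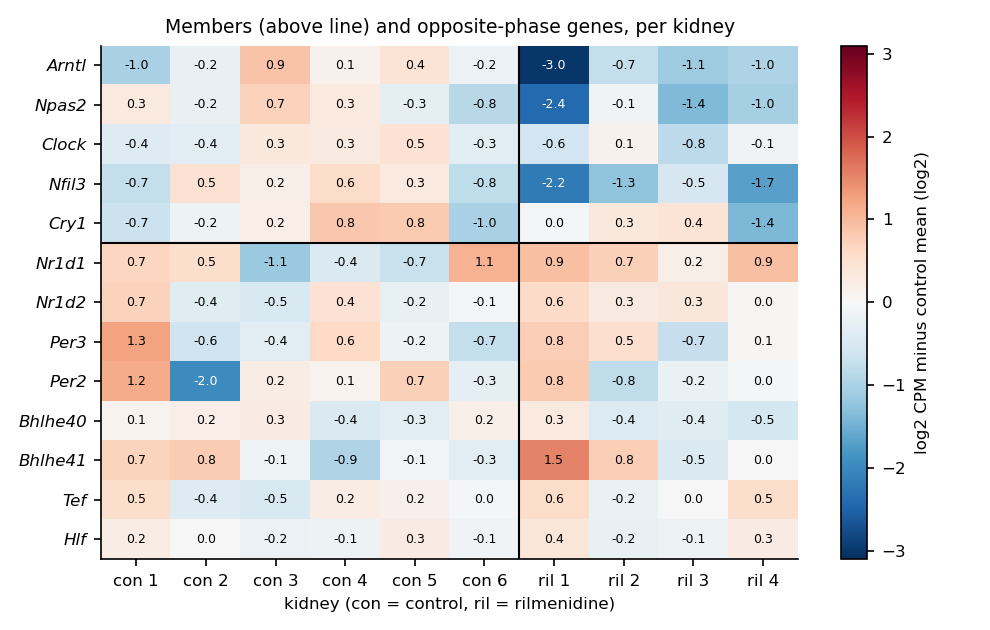
Log2 CPM minus the mean of the 6 control kidneys (colour and printed value) for the members (above the line) and for tested repressors and PAR bZIP genes (below it), 1 column per kidney. The lowest values of Arntl, Npas2 and Nfil3 are in the rilmenidine columns, and Nr1d1 is above its control mean in all 4 of these.

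The rest of the clock machinery gave no call. Rora, an activator at ROREs, differed by −0.07 (log2, standard error 0.20). Its paralog Rorb had 2 to 18 reads per kidney and was not tested. Rora was steady in the rilmenidine group, at 74.8 to 88 normalized CPM, and ran from 43.1 to 109 in controls. Of 9 kinases and ligases that set the stability of PER and CRY proteins, all were tested, 2 were above 0 and 7 below, with a median of −0.14. Over all 10055 tested genes 4999 were below 0. The smallest p-value was that of Gsk3b, a kinase of several clock proteins, at −0.38 (standard error 0.18, adjusted p-value 0.456 in the quasi-likelihood test).

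Of 14 partners and cofactors 12 were tested, with a median of −0.18 and 2 unadjusted p-values under 0.05. Both were lower, beside 6.13% of all genes in that direction and 10.6% in either. Ncor1, the corepressor that REV-ERB recruits to the Arntl promoter, had 261 ± 40.5 (SD, n = 6) normalized CPM in control and 190.5 ± 30.8 (SD, n = 4) in rilmenidine kidneys, a log2 fold change of −0.45 (standard error 0.14, adjusted p-value 0.293 in the quasi-likelihood test). Crebbp, a histone acetyltransferase and coactivator, had 63.0 ± 10.7 (SD, n = 6) and 47.5 ± 4.27 (SD, n = 4), with all 4 rilmenidine kidneys below all control kidneys, as in 0.875% of all genes. Crebbp differed by −0.41 on the log2 scale (standard error 0.15, adjusted p-value 0.339 in the same test).

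Of 11 genes listed as outputs of the kidney clock 7 were tested, with a median of −0.05. Sgk1, a kinase that raises sodium uptake, had −0.44 (standard error 0.20), Cdkn1a, the cell cycle inhibitor p21, had −0.86 (standard error 0.40), and Scnn1a, the alpha subunit of the epithelial sodium channel, had 0.0033 (standard error 0.16). Over all of these lists, each gene counted once, 38 of 49 genes were tested, though DESeq2 gave Per2 and Bhlhe41 no adjusted p-value. By edgeR's quasi-likelihood or likelihood ratio test and by DESeq2, 0 of them passed after adjustment, and 5 had an unadjusted p-value under 0.05 (Cdkn1a, Crebbp, Gsk3b, Ncor1 and Sgk1), all lower with rilmenidine, beside 6.13% of all genes in that direction and 10.6% in either.

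**Figure D5:**
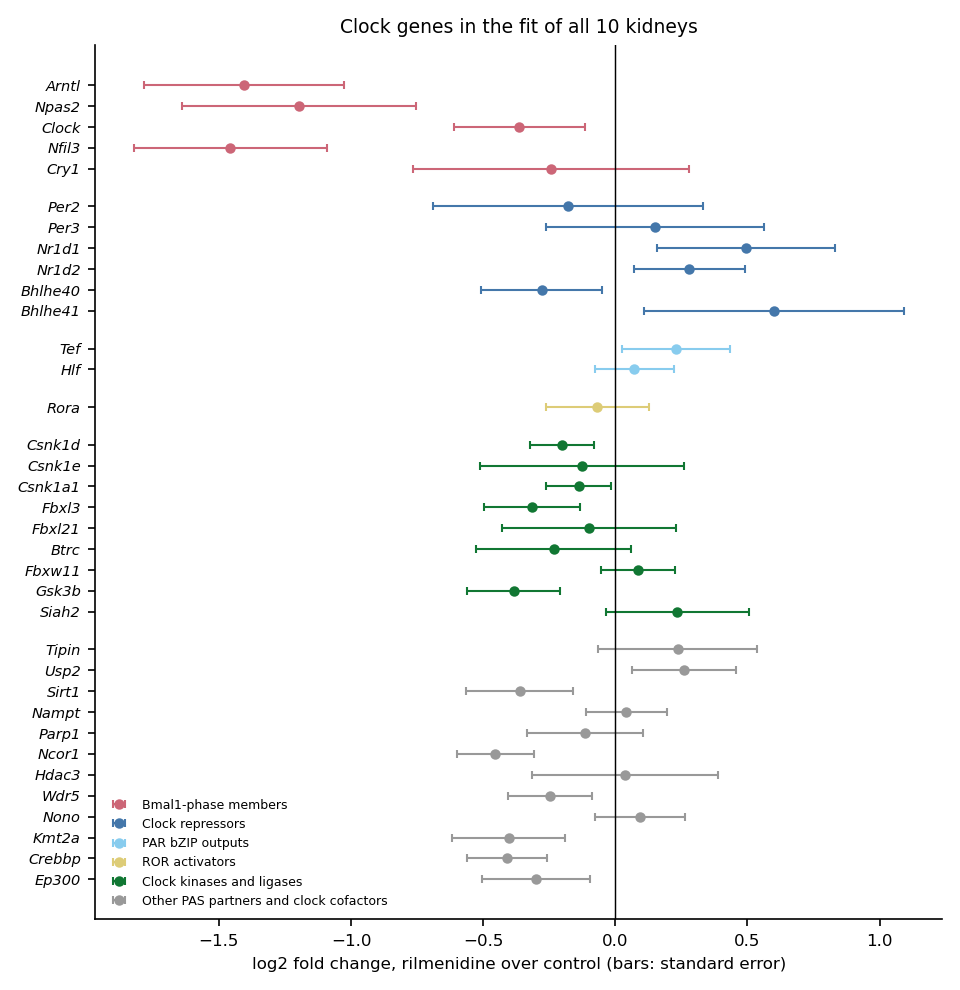
Log2 fold change of rilmenidine over control (points) with standard error (bars) for tested genes of 6 lists, from the fit of all 10 kidneys. Arntl, Npas2 and Nfil3 lie beyond −1, and the genes of the other lists between −0.45 and 0.60.

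Signals that can reset peripheral clocks were read from 3 further lists. Of 12 glucocorticoid-induced genes 9 were tested, 8 of them below 0 with a median of −0.19. Over all 10055 tested genes 4999 were below 0. In the list 0 passed after adjustment, while 2 (Sgk1 and Cdkn1a, counted above) had an unadjusted p-value under 0.05. Both were lower with rilmenidine, beside 6.13% of all genes in that direction and 10.6% in either. Whether the list as a whole differed was not tested. Fkbp5, a sensitive target of the glucocorticoid receptor, had −0.32 (standard error 0.29). Of 16 immediate early genes 11 were tested with a median of 0.04, and Ier3 had the smallest p-value, at 0.68 (standard error 0.18, adjusted p-value 0.232 in the quasi-likelihood test). Of 8 genes that follow body temperature 7 were tested with a median of −0.26. Hspa1a, an inducible heat shock protein, was at −1.22 (standard error 0.33, adjusted p-value 0.232 in that test), while its near-identical neighbour Hspa1b was at −0.62 (standard error 0.35), and reads may have been divided between them.

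The genes most like Arntl in their variation were not clock genes. After each group mean was subtracted from log2 CPM, Pearson's r with Arntl over the 10 kidneys was 0.96 for Pbx3, 0.95 for Gcc1, Pknox1 and Esyt2, and 0.93 for Akap17b, and it was −0.93 for Cdkn1c and Pithd1 and −0.92 for Nudt18, Rbm7 and Lxn. These are the ends of a ranking of 10054 genes over the 10 kidneys, and they carry no test. The kidneys differed in library depth, from 863605 to 3232063 total counts, and all genes of a kidney share its depth. Pbx3 and Pknox1 encode homeodomain factors. By the same measure Npas2 stood at 0.66 (rank 476 from the top), Clock at 0.65, Nfil3 at 0.62 and Cry1 at 0.24, while Nr1d1 stood at −0.58 and Nr1d2 at −0.62. Rilmenidine kidney 1 had 1.48 log2 CPM of Arntl, beside a mean of 3.04 in its group. It held 3 Arntl, 2 Npas2 and 6 Nfil3 reads. How much the values of r rest on that kidney was not tested.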

How the data were processed

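Kidney RNA of 6 control and 4 rilmenidine-treated mice was sequenced from 3′-end libraries. According to the submitters' processing notes, the authors used bcl2fastq 1.8.4, Trimmomatic 0.32, STAR 2.5.2b on mm10 and featureCounts 1.5, and they deposited raw counts per Ensembl gene. The annotation release, the strand setting and the handling of molecular identifiers are not given in the sources used here. If duplicates were kept, counts overstate molecules, and without a known strand setting overlapping genes cannot be told apart. Of 43629 genes, 42462 matched GENCODE M21 (GRCm38). The study's methods give more control kidneys than the 6 used here.

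Following the study's filter, the 10055 genes that reached 6 reads in 7 or more of the 10 samples were kept, scaled by RLE and fitted with the quasi-likelihood test of edgeR 4.0.16 (R 4.3.3) on all 10 libraries without covariates. P-values were adjusted by Benjamini-Hochberg over all tested genes, with a threshold of 0.05. Log2 CPM used a prior count of 2. Correlations used exact permutations. The fit was tested on simulated data. Labels gave groups and replicate numbers, and nothing beyond them says how the animals were housed. The alternatives were TMM, filters of 1 count in any or 10 counts in every sample, DESeq2 1.42.0, the likelihood ratio test, covariates of log2 library size and Malat1, a replicate block, a split on receptor genes and leaving out each kidney. The members and lists were chosen with earlier results of these data known. Named genes were the members, tested repressors, PAR bZIP and ROR genes, in each other clock list those with an unadjusted p-value under 0.05 or else the smallest, the tissue markers, Malat1, and the 5 genes at either end of the ranking by likeness to Arntl. A listed gene that is included in the counts is not reported here. Other genes, such as Scnn1a, Fkbp5 and Hspa1b, were named after their values were seen.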

Additional observations from a re-analysis of the deposited data

Results flagged for a closer look

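Bhlhe40 stood apart in 1 kidney. Rilmenidine kidney 1 had 25.5 normalized CPM, and the other 3 rilmenidine kidneys lay between 13.7 and 15.7, a gap of 0.83 of the whole range of the group. In all, 30 groups of kidneys were examined in this way over the members and the tested repressors, PAR bZIP and ROR genes, and chance alone would give about 1 in 20. The same kidney had the lowest Arntl, Npas2 and Nfil3 of the series, but no member was singled out in this way. Only normalized CPM were examined so. On the log2 scale, where gaps were not examined, Arntl stood at 1.48 in that kidney and between 3.39 and 3.76 in the other 3 rilmenidine kidneys.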

How the results depend on the processing

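The number of genes with an adjusted p-value under 0.05, 0 in the fit as reported, was 241 with a minimum of 1 count in any sample, 60 with DESeq2, 44 with the likelihood ratio test, and 0 to 37 with single kidneys left out (33 without control kidney 2, 37 without control kidney 6, 6 without rilmenidine kidney 1 and 0 otherwise). Library size as a covariate turned Per2 to 0.51 and moved Per3 from 0.15 to 1.12, Bhlhe41 from 0.60 to 1.21 and Nr1d2 from 0.28 to 0.61. The Malat1 covariate moved Cry1 to 0.64 and turned Per2 to 0.83, Nr1d1 to −0.033 and Rora to 0.22. With single kidneys left out the log2 fold changes ran from −0.56 to 0.068 for Per2, −0.078 to 0.47 for Per3, −0.037 to 0.17 for Hlf and −0.21 to 0.01 for Rora, and Bhlhe41 was 0.072 without rilmenidine kidney 1. The causes were not tested.

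Replicate numbers are not said to mark shared litters or days, and same-numbered kidneys correlated at 0.0762, 0.0775, −0.0768 and −0.00704; 0 of the 4 rilmenidine kidneys correlated best with the control of its own number. With the replicate block 3 genes passed, and Per3 and Rora turned to −0.095 and 0.089.

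Arntl, Npas2 and Nfil3 kept their sign in every fit that held them, with −1.58 to −1.12, −1.68 to −0.93 and −1.93 to −1.26 when single kidneys were left out. Npas2 was −0.54 with log2 library size and −0.68 with log2 Malat1 CPM as a covariate. Every fit reuses these kidneys and the contrast known when the members were chosen, so the kept sign supports nothing. The filter of 10 counts in every sample kept only Clock of the members. In no alternative did another clock gene pass. None of the 14 relations of Arntl passed under TMM or a prior count of 0.5; with 5 kidneys or fewer the permutations are too few for a single relation to pass, so those fits say nothing of stability. With 2 to 50 reads per kidney for Arntl, Npas2, Nfil3 and Cry1, counting error adds to each value.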
